A study of Caenorhabditis elegans with 51 samples.

Results

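*prdx-2* worms were set directly against *sod-1* worms, with 3 libraries of each strain out of the 39 libraries in the RNA sequencing table that holds both, and out of 51 libraries in the series. The libraries were selected by their genotype labels. Each library was made from whole *C. elegans* and is a biological replicate by the series' own description. The worms were well fed with OP50 bacteria at 20 °C, synchronized, and taken as young adults that were not yet fertile. *prdx-2* worms carry a mutation in *prdx-2* and *sod-1* worms a mutation in *sod-1*, and no further allele or treatment is named for either strain. Which alleles were used is not given in the sources used here. Wild-type worms (6 libraries of the same table) appear below only as levels beside the mutants.

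PRDX-2 is a cytosolic peroxiredoxin, a thiol enzyme that reduces hydrogen peroxide and is recharged by thioredoxin. SOD-1 is the main copper and zinc superoxide dismutase of the cytosol, which turns superoxide into hydrogen peroxide and oxygen. One enzyme thus consumes an oxidant that the other produces, and the comparison asks how the transcripts of the strains differ when the strains are set against each other without wild-type worms between them.

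The values are CPM, the reads of a gene scaled to the reads of its library, that the authors normalized further between libraries, and they are called normalized CPM here. The 6 libraries hold 23296948 to 24627455 reads each in 14033 genes, with 7.56% to 10.2% of the reads in the top 10 genes. All measured members of 10 marker lists for tissues, germ cells and stages had reads somewhere among the 6 whole-worm libraries. The authors had filtered the genes beforehand. The libraries of each strain were not all alike. *prdx-2* replicate 1 correlated with the other *prdx-2* libraries at 0.945 and 0.946 (log2 values, genes averaging 1 or more), where the other two correlated with each other at 0.991. Among *prdx-2* libraries it was the lowest in summed genes of the larval molts and the highest in summed yolk protein genes. The yolk sum was 29299 there, against 8737.5 and 10290 in the other *prdx-2* libraries and 24959 to 44581 over the wild-type libraries. Among *sod-1* libraries, replicates 1 and 3 correlated at 0.985, replicates 2 and 3 at 0.979, and replicates 1 and 2 at 0.970. *sod-1* replicates 2 and 3 were low in long genes.

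**Figure D1:**
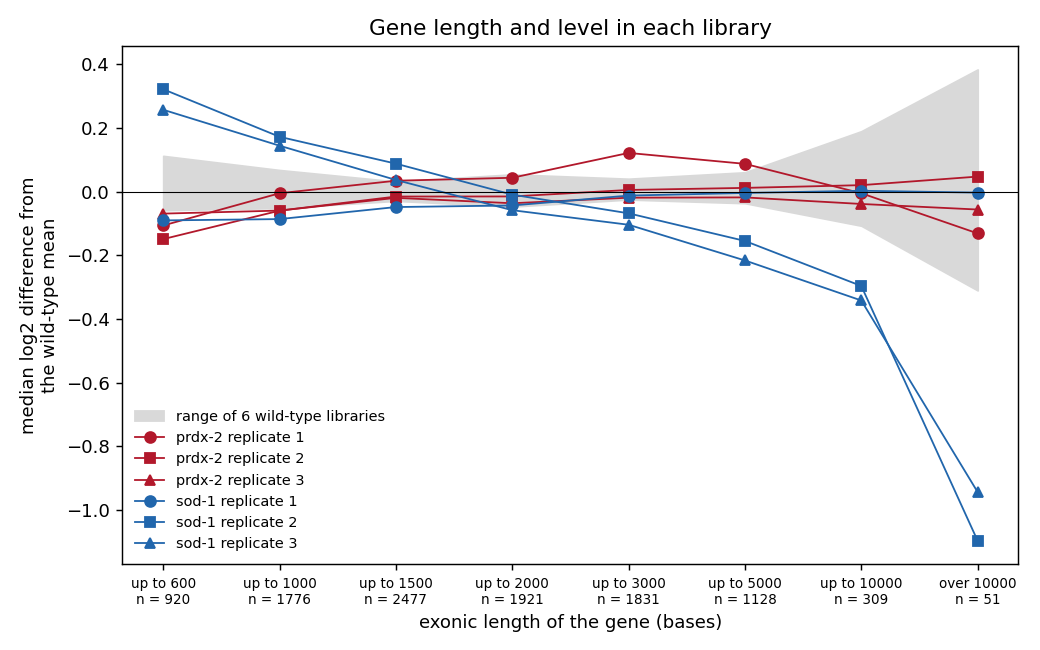
Median log2 difference of each *prdx-2* and *sod-1* library from the mean of the wild-type libraries, by exonic length of the gene in bases (genes averaging 5 or more normalized CPM, number per bin under the axis). The grey band spans the 6 wild-type libraries, and *sod-1* replicates 2 and 3 lie above it for the shortest genes and below it for genes over 2000 bases.

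Gene length separated the libraries of *sod-1* worms. Among the 51 genes over 10000 bases of exon that averaged 5 or more normalized CPM, the median log2 difference from the wild-type mean was -0.13, 0.05 and -0.06 in the 3 *prdx-2* libraries, and 0.00 in *sod-1* replicate 1 against -1.10 and -0.94 in replicates 2 and 3. Among the 920 genes of up to 600 bases it was -0.11, -0.15 and -0.07 in the *prdx-2* libraries, and -0.09 in *sod-1* replicate 1 against 0.32 and 0.26 in replicates 2 and 3. The median log2 fold change of *prdx-2* over *sod-1* worms ran accordingly with length, at -0.31 for the shortest genes and 0.54 for the longest. The giant muscle genes *unc-22*, which encodes twitchin, and *unc-89*, which encodes obscurin, show the pattern in single values. *unc-22* measured 821, 806 and 849 normalized CPM in *prdx-2* worms, against 989, 435 and 436 in *sod-1* worms. *unc-89* measured 437, 553 and 536 in *prdx-2* worms, against 622, 350.2 and 325 in *sod-1* worms. In both genes *sod-1* replicate 1 lay above all *prdx-2* libraries and the other *sod-1* libraries lay below all of them. The part that length plays in each result was not tested gene by gene. A fit with each library's trend over length removed stands beside the counts instead.

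**Figure D2:**
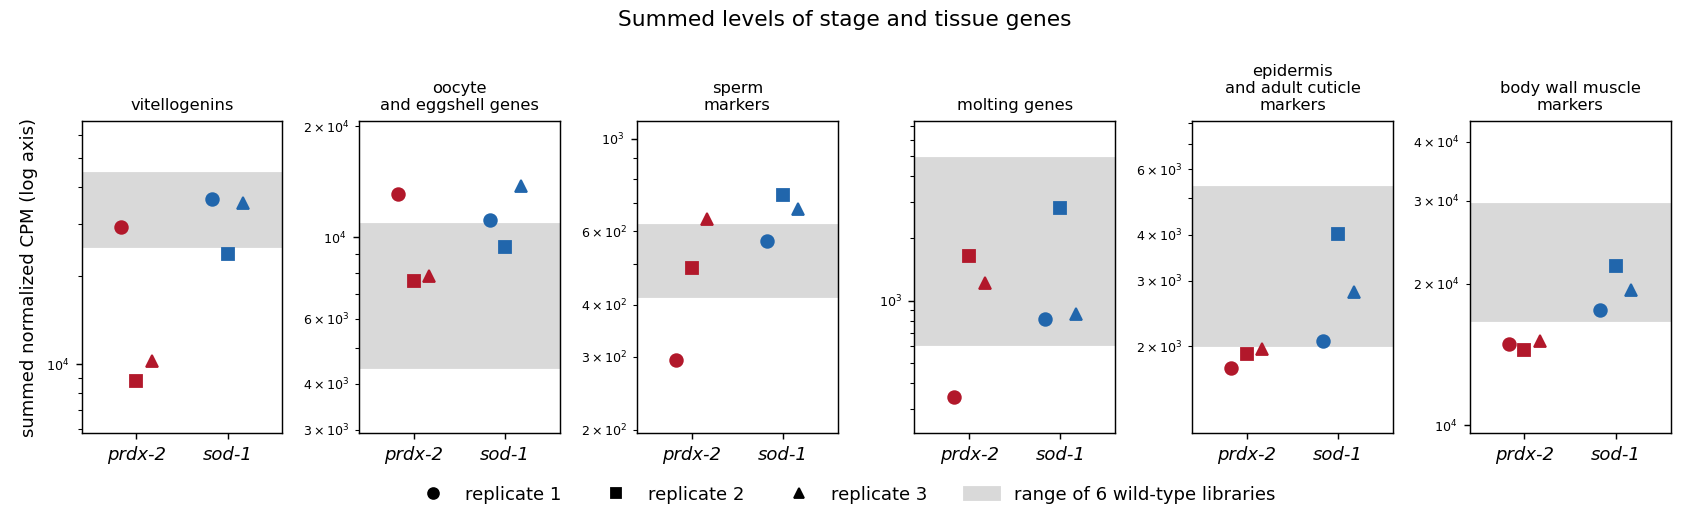
Summed normalized CPM (log axis) of 6 lists of stage and tissue genes in each *prdx-2* and *sod-1* library, with the grey band spanning the 6 wild-type libraries. *prdx-2* replicate 1 is lowest in molting genes and sperm markers, and *sod-1* replicate 2 is highest in molting genes.

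Developmental genes spread widely within both strains. The 16 molting genes summed to 342, 1644 and 1209.6 normalized CPM in *prdx-2* worms and to 815, 2811 and 864 in *sod-1* worms, against 611 to 4904 over the wild-type libraries. *prdx-2* replicate 1 was the lowest and *sod-1* replicate 2 the highest, and the groups overlapped. *mlt-10*, a molting gene, measured 9.25, 68.0 and 68.0 in *prdx-2* worms and 84.4, 236 and 131 in *sod-1* worms (adjusted p = 0.199, limma, not called). *bli-1*, an adult cuticle collagen, measured 4.23, 173 and 163 in *prdx-2* worms and 99.4, 593 and 119.2 in *sod-1* worms (adjusted p = 0.323). None of the 16 molting genes and none of the 12 epidermis and adult cuticle markers was called. The 25 oocyte and eggshell genes summed to 13119, 7612 and 7862 in *prdx-2* worms and 11101, 9394 and 13742 in *sod-1* worms, again overlapping and with none called. For *oma-2*, a regulator of oocyte maturation and the oocyte gene with the largest difference, the values were 303, 133 and 139.7 in *prdx-2* worms and 251, 204 and 286 in *sod-1* worms.

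The mutated genes match the labels in all 6 libraries. *prdx-2* (WBGene00006434, II:5378195-5379631 on WBcel235, forward strand) measured 71.3, 62.8 and 58.7 normalized CPM in *prdx-2* worms, against 478, 668 and 609 in *sod-1* worms (log2 fold change of -3.17 with SE 0.19, adjusted p = 1.62e-14, limma). *sod-1* (WBGene00004930, II:6972706-6973887, reverse strand) measured 164, 181 and 151 in *prdx-2* worms, against 3.98, 4.18 and 4.69 in *sod-1* worms (log2 fold change of 5.12 with SE 0.14, adjusted p = 3.77e-25). Each transcript was low only in the strain named for it, with no overlap, while the wild-type median was 499 for *prdx-2* and 163 for *sod-1*. The exact permutation test of 3 against 3 libraries gave p = 0.1 for both genes (two-sided), the smallest it allows.

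Of 14033 genes tested, 1054 were higher and 707 lower in *prdx-2* than in *sod-1* worms (limma on log2 of the value plus 0.5, Benjamini-Hochberg false discovery rate below 0.05), which is 7.51% and 5.04% of all genes and 12.5% in both directions. These shares are the background for every count of called genes in a list or family below. The median log2 fold change of all genes was -0.03. With reads scaled by library total alone, the median moved to 0.17 and the split to 1897 higher and 291 lower, so the number of calls in each direction depends on the scaling. Without *prdx-2* replicate 1 the counts were 590 and 407 (7.10% of genes in all), and of the 1054 and 707 genes 561 and 354 were still called. With the trend over gene length removed they were 905 higher and 642 lower (6.49% and 4.60% of 13955 genes), and 832 and 493 of the first calls were kept. Against *sod-1* replicate 1 alone, the *sod-1* library near the wild-type level in long genes, 74 higher and 15 lower genes were called (0.634%), where that lone library was assumed to vary like the other groups. Leaving out both *prdx-2* replicate 1 and *sod-1* replicate 2 left 231 and 94 calls (2.32%), and removing the length trend without *prdx-2* replicate 1 gave 470 and 442 (6.54%).

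**Figure D3:**
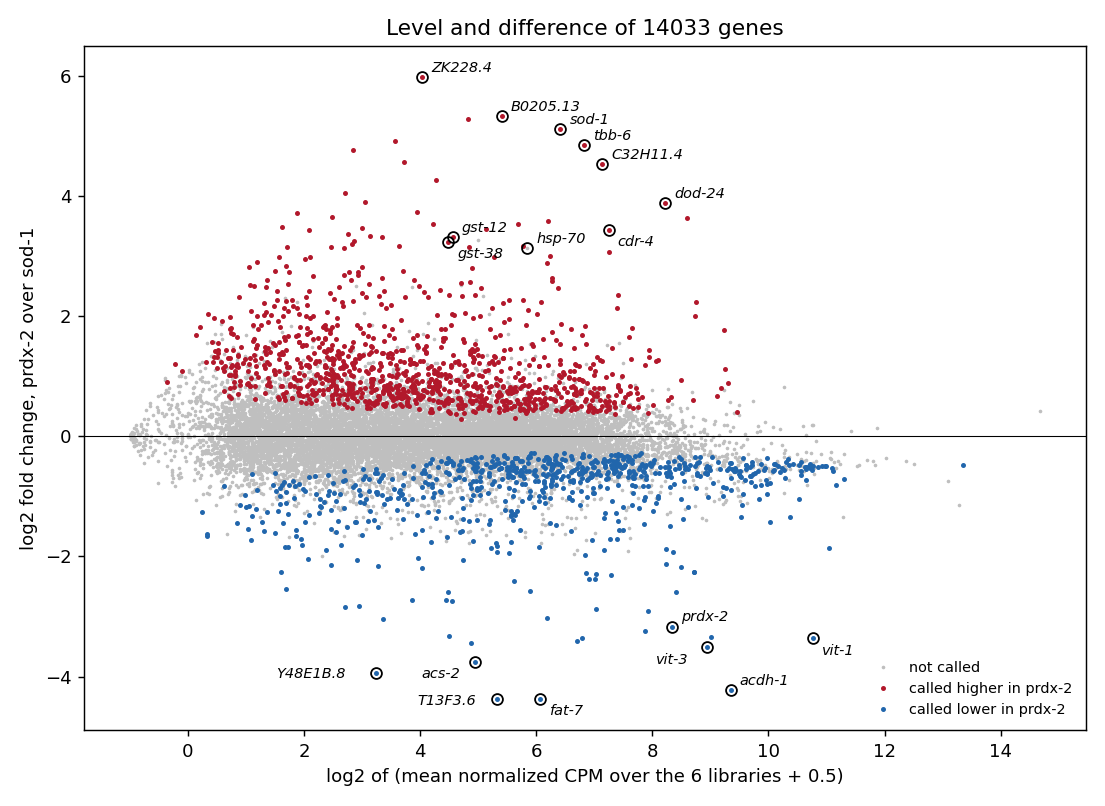
Log2 fold change of *prdx-2* over *sod-1* worms against mean level (log2 of normalized CPM plus 0.5 over the 6 libraries), one point per gene, with 1054 genes called higher in red and 707 called lower in blue. Circled genes are named in the text. The largest differences lie far from the band of uncalled genes, while *hsp-70* is large but not called.

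Of the called genes averaging 1 or more whose 3 *prdx-2* values did not overlap the 3 *sod-1* values, 878 were higher (6.26% of all genes) and 655 lower (4.67%), 10.9% in all. Beside the range of the 6 wild-type libraries, 534 of the 878 had all *prdx-2* values above that range with *sod-1* values not all below it. 66 had only the *sod-1* values beyond it, 28 had both and 250 neither. Of the 655 lower genes, 501 had only the *prdx-2* values below the wild-type range, 48 only the *sod-1* values above it, 3 both and 103 neither. This describes levels and is not a test against wild-type worms.

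**Figure D4:**
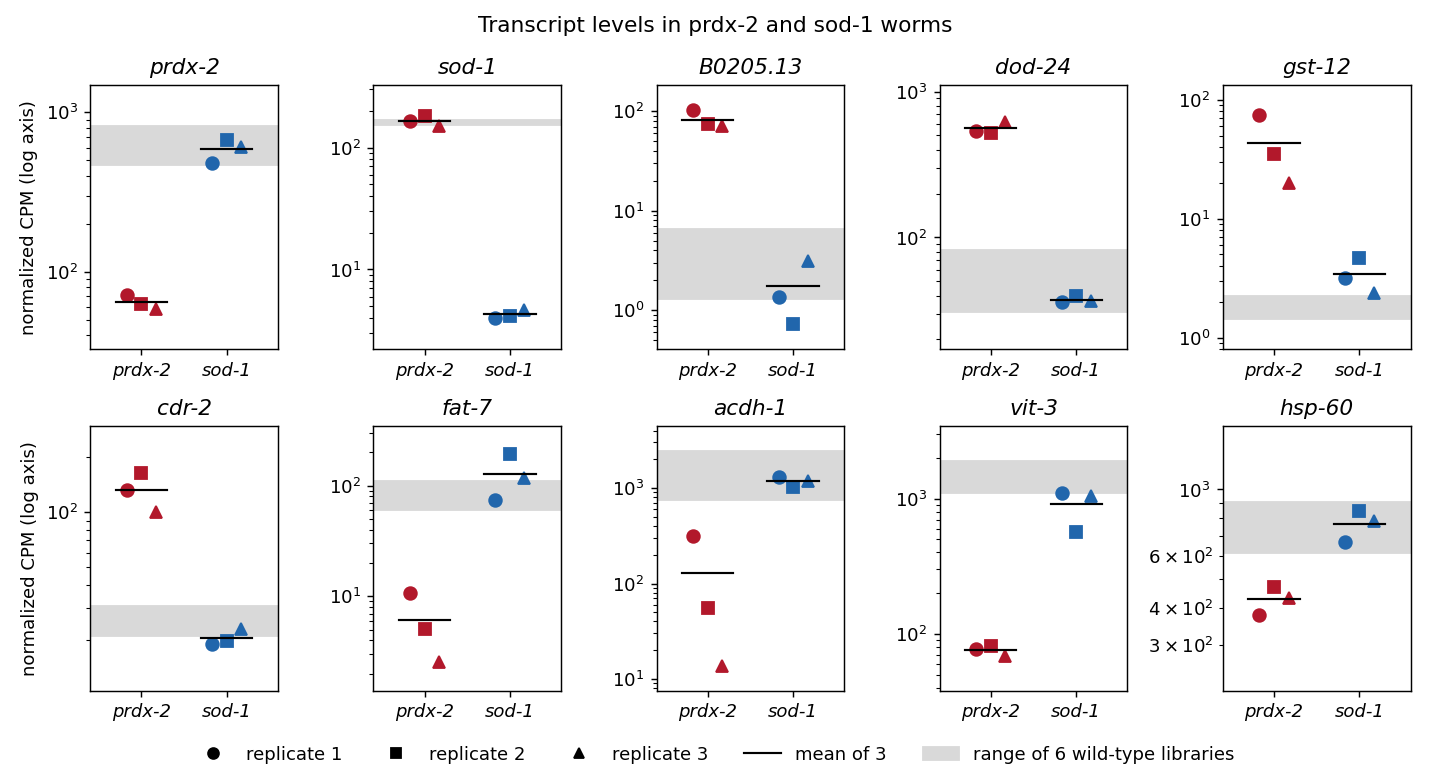
Normalized CPM (log axis) of 10 named genes in each *prdx-2* and *sod-1* library, with black lines for the mean of 3 and a grey band for the range of 6 wild-type libraries. In all 10 genes the values of the strains do not overlap, which the choice of genes required except for the mutated genes. Outside the *sod-1* panel it is mostly the *prdx-2* values that leave the wild-type range.

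Transcripts that *sod-1* worms nearly lacked were among the largest increases in *prdx-2* worms. ZK228.4 (V:18462787-18465426) measured 25.4, 40.0 and 29.7 normalized CPM in *prdx-2* worms, against 0 in all 3 *sod-1* libraries (2621 reads against 0 reads). Taking 3 reads over the group as the limit that a count of 0 allows, it was at least 734-fold higher. Its neighbour ZK228.3 (V:18458241-18461250) measured 9.67, 16.8 and 13.9, against 0 in all *sod-1* libraries, at least 311-fold higher. In wild-type worms both were present, at medians of 25.6 and 16.36. B0205.13 and B0205.14 are neighbouring genes on opposite strands of chromosome I. B0205.13 measured 102, 73.8 and 71.1 in *prdx-2* worms, against 1.37, 0.727 and 3.11 in *sod-1* worms (log2 fold change of 5.34 with SE 0.50, adjusted p = 2.47e-09). B0205.14 measured 31.1, 21.2 and 15.4 in *prdx-2* worms, against 0.195, 0.318 and 0.180 in *sod-1* worms (log2 fold change of 4.93 with SE 0.32, adjusted p = 1.02e-13). In both genes the lowest *prdx-2* library lay far above the highest *sod-1* library. Unlike the ZK228 genes, B0205.13 and B0205.14 were low in wild-type worms too, at medians of 2.97 and 0.0855.

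*parg-2*, a poly(ADP-ribose) glycohydrolase, measured 65.0, 32.3 and 67.1 in *prdx-2* worms, against 0.976, 0.409 and 1.31 in *sod-1* worms (log2 fold change of 5.29 with SE 0.64, adjusted p = 5.40e-07). *tbb-6*, a divergent beta-tubulin, measured 320.0, 153 and 183 in *prdx-2* worms, against 9.99, 6.63 and 4.51 in *sod-1* worms (log2 fold change of 4.85 with SE 0.92, adjusted p = 7.31e-04). *cng-1*, a cyclic nucleotide gated channel subunit, measured 36.8, 24.3 and 48.4 in *prdx-2* worms, against 1.40, 0.818 and 1.98 in *sod-1* worms (log2 fold change of 4.28 with SE 0.51, adjusted p = 3.92e-07). The 3 genes were named on condition of no overlap between the strains, and *tbb-6* was highest in *prdx-2* replicate 1. C32H11.4, of a cluster of CUB-like genes on chromosome IV that also holds *dod-24*, measured 108, 297 and 408 in *prdx-2* worms, against 13.8, 9.31 and 7.03 in *sod-1* worms (log2 fold change of 4.54 with SE 0.68, adjusted p = 3.21e-05), lowest among *prdx-2* worms in replicate 1. Y58A7A.4 had a log2 fold change of 4.57, the cytochrome P450 gene *cyp-13A8* 4.05 and the glucuronosyltransferase gene *ugt-18* 3.90. These last 2 detoxification genes varied widely among *prdx-2* libraries, from 3.08 to 17.1 and from 4.09 to 31.8 normalized CPM, and the call of *cyp-13A8* was lost without *prdx-2* replicate 1 or 2 or *sod-1* replicate 2 (adjusted p = 0.0651 to 0.0712). Of the 12 largest increases, *sod-1* itself included, 11 were still called without *prdx-2* replicate 1, all 12 with the length trend removed, and 9 against *sod-1* replicate 1 alone.

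The transcripts absent from *sod-1* worms all lie on chromosome V. In all, 5 genes averaging 1 or more in *prdx-2* worms had no read in any *sod-1* library, namely *fbxb-7*, the pseudogenes C18D4.8 and C38D9.5, ZK228.3 and ZK228.4, between 17377406 and 18465426 on that chromosome. *fbxb-7*, an F-box gene, measured 1.71, 1.38 and 1.56 normalized CPM in *prdx-2* worms, at least 35.9-fold higher than the limit of 3 reads in *sod-1* worms. C18D4.8 measured 6.09, 4.34 and 4.96 and C38D9.5 1.49, 4.45 and 4.82 in *prdx-2* worms, at least 118.9-fold and 83.0-fold higher. Y20C6A.1 and C18D4.6, of the same stretch, each had 1 read in *sod-1* worms, against 519 and 258 reads in *prdx-2* worms. All 7 were present in wild-type worms. These genes were picked out after their values were seen.

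Genes of fat metabolism and yolk stood among the largest decreases. *fat-7*, a stearoyl-CoA desaturase, measured 10.8, 5.05 and 2.53 in *prdx-2* worms, against 74.5, 191 and 117 in *sod-1* worms (log2 fold change of -4.37 with SE 0.67, adjusted p = 4.34e-05). *acdh-1*, an acyl-CoA dehydrogenase of propionate breakdown, measured 316, 54.98 and 13.6 in *prdx-2* worms, against 1317, 1029 and 1187 in *sod-1* worms (log2 fold change of -4.22 with SE 0.93, adjusted p = 0.00297). *acs-2*, an acyl-CoA synthetase of mitochondrial fat oxidation, measured 4.42, 2.79 and 3.22 in *prdx-2* worms, against 61.9, 28.5 and 81.7 in *sod-1* worms (log2 fold change of -3.76 with SE 0.88, adjusted p = 0.00476). Lack of overlap was a condition of naming all of them, and the *prdx-2* values of *acdh-1* themselves spread widely, with replicate 1 the highest. *acdh-2*, a relative of *acdh-1*, and *pmp-5*, a peroxisomal ABC transporter gene, fell as well (log2 fold changes -3.32 and -3.35). T13F3.6 had the largest decrease of all and measured 6.63, 1.69 and 2.43 in *prdx-2* worms, against 74.4, 54.6 and 98.6 in *sod-1* worms (log2 fold change of -4.38 with SE 0.58, adjusted p = 3.58e-06). Y48E1B.8 and F21C10.9 fell to means of 0.574 and 4.80 normalized CPM in *prdx-2* worms, against 17.3 and 52.8 in *sod-1* worms. F44G3.2, an arginine kinase gene, was the weakest call, at 74.9, 8.12 and 4.60 in *prdx-2* worms, against 158, 292 and 84.7 in *sod-1* worms (log2 fold change of -3.41 with SE 1.14, adjusted p = 0.0442), and neither edgeR nor DESeq2 called it. Its call was lost without *prdx-2* replicate 2 or 3 or *sod-1* replicate 1, 2 or 3 (adjusted p = 0.0677 to 0.204), and that of *acdh-2* without *prdx-2* replicate 2 or 3 or *sod-1* replicate 1 or 3 (adjusted p = 0.0728 to 0.133). All 12 largest decreases were still called without *prdx-2* replicate 1 and with the length trend removed, and 1 of the 12, T13F3.6, against *sod-1* replicate 1 alone.

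The list of fat synthesis and breakdown held 26 measured genes, of which 2 rose, 8 fell and 16 were not called, with a median log2 fold change of -0.20. Over all genes 7.51% rose and 5.04% fell. The 4 fatty acid elongases of the list all fell. *elo-6* and *elo-5*, which make monomethyl branched-chain fatty acids, had log2 fold changes of -1.88 and -1.71. *elo-6* measured 122, 118 and 139 in *prdx-2* worms, against 363, 605 and 458 in *sod-1* worms, and *elo-5* 78.7, 59.2 and 77.5 in *prdx-2* worms, against 199, 283 and 229 in *sod-1* worms. *elo-2* and *elo-1*, which lengthen straight-chain fatty acids, had log2 fold changes of -1.73 and -1.02, and the lipase gene *lipl-5* -0.84. In these 5 genes the strains did not overlap, which for *elo-6* was a condition of naming. The 2 genes that rose are lipases too, while *lipl-5* fell. *lipl-2* measured 129.9, 35.96 and 41.4 in *prdx-2* worms, against 7.69, 10.5 and 3.97 in *sod-1* worms (log2 fold change of 2.98 with SE 0.59, adjusted p = 0.0011) and *fil-1*, a fasting-induced lipase, 13.3, 4.73 and 4.997 in *prdx-2* worms, against 1.09, 3.09 and 1.17 in *sod-1* worms (log2 fold change of 1.79 with SE 0.50, adjusted p = 0.0176). Both were highest in *prdx-2* replicate 1. The call of *fil-1* was lost without *prdx-2* replicate 1 or *sod-1* replicate 1 or 3 (adjusted p = 0.0515 to 0.129), that of *elo-2* without *prdx-2* replicate 1 or 2 or *sod-1* replicate 2 or 3 (adjusted p = 0.0702 to 0.188) and that of *lipl-5* without *prdx-2* replicate 1, 2 or 3 or *sod-1* replicate 2 or 3 (adjusted p = 0.0612 to 0.243). *nhr-114*, a nuclear hormone receptor gene, measured 23.7, 13.6 and 10.5 in *prdx-2* worms, against 102, 174 and 111 in *sod-1* worms (log2 fold change of -3.02 with SE 0.47, adjusted p = 5.54e-05), the largest difference among 171 *nhr* genes. Without *prdx-2* replicate 1 the list had 1 gene higher and 6 lower, and with the length trend removed 2 and 8.

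The 6 vitellogenin genes encode the yolk proteins that the adult intestine makes for the oocytes, and they split into 2 patterns. *vit-1* measured 243, 264 and 435 in *prdx-2* worms, against 3898, 2391 and 3265 in *sod-1* worms (log2 fold change of -3.36 with SE 0.71, adjusted p = 0.00207). *vit-3* measured 77.6, 81.1 and 68.5 in *prdx-2* worms, against 1108, 569.9 and 1037 in *sod-1* worms (log2 fold change of -3.51 with SE 0.86, adjusted p = 0.00656) and *vit-4* 94.6, 89.9 and 85.2 in *prdx-2* worms, against 1153, 638 and 1043 in *sod-1* worms (log2 fold change of -3.34 with SE 0.81, adjusted p = 0.00656). In these 3 genes every *prdx-2* library, replicate 1 included, lay below every *sod-1* and every wild-type library. The more abundant *vit-2*, *vit-5* and *vit-6* were not called. *vit-2* measured 12875, 3831 and 4681 in *prdx-2* worms, against 11818, 7933 and 11470.0 in *sod-1* worms (adjusted p = 0.556), *vit-5* 2952, 924 and 855 in *prdx-2* worms, against 4079, 2442 and 3778 in *sod-1* worms (adjusted p = 0.298) and *vit-6* 13057, 3548 and 4165 in *prdx-2* worms, against 14496, 9751 and 14764 in *sod-1* worms (adjusted p = 0.344). There *prdx-2* replicate 1 reached the level of the *sod-1* libraries, and the other *prdx-2* libraries lay below them. *vit-3* and *vit-4* are near-identical, and how reads shared by both were counted is uncertain. The calls of *vit-1*, *vit-3* and *vit-4* stood without any single library and with the length trend removed, but not against *sod-1* replicate 1 alone. In bulk libraries of whole worms, less RNA per cell cannot be told apart from fewer cells of a type.

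Of the 5 superoxide dismutase genes 3 rose and none fell, and 1 of the 3 is *sod-1*, the gene mutated in the other strain. *sod-4*, the extracellular copper and zinc enzyme, measured 34.4, 27.6 and 34.8 in *prdx-2* worms, against 8.74, 10.9 and 10.3 in *sod-1* worms (log2 fold change of 1.64 with SE 0.35, adjusted p = 0.00216), all *prdx-2* values above the wild-type range of 8.13 to 21.7. *sod-3*, a mitochondrial manganese enzyme and a well-known DAF-16 target, measured 18.9, 6.32 and 4.96 in *prdx-2* worms, against 2.54, 2.86 and 3.06 in *sod-1* worms (log2 fold change of 1.44 with SE 0.32, adjusted p = 0.00372). Its *prdx-2* replicate 1 stood far above the others, and the call was lost without *prdx-2* replicate 1 (adjusted p = 0.0646). *sod-2*, the main mitochondrial enzyme, had 83.8 to 89.4 in *prdx-2* worms and 85.1 to 114 in *sod-1* worms (adjusted p = 0.443). *sod-5* had 0.812 to 3.77 in *prdx-2* worms and 0.0901 to 0.195 in *sod-1* worms, without overlap but not called (adjusted p = 0.129).

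Of the 3 catalase genes, whose products also remove hydrogen peroxide, only *ctl-3* was called. It measured 12.9, 11.5 and 12.57 in *prdx-2* worms, against 5.27, 7.27 and 9.38 in *sod-1* worms (log2 fold change of 0.75 with SE 0.24, adjusted p = 0.0377), and the call was lost with the length trend removed and without *prdx-2* replicate 1, 2 or 3 or *sod-1* replicate 1 or 2 (adjusted p = 0.0679 to 0.161). The peroxisomal *ctl-2*, the most abundant of the 3, overlapped at 86.6 to 124 in *prdx-2* worms and 67.6 to 95.8 in *sod-1* worms, and *ctl-1* had 2.93 to 3.31 in *prdx-2* worms and 1.5999 to 2.39 in *sod-1* worms (adjusted p = 0.239). The catalase genes lie next to each other and are alike in sequence, so reads they share could make their separate values uncertain.

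The peroxiredoxin, thioredoxin and glutathione peroxidase system had 22 measured genes, of which 3 rose, 3 fell and 16 were not called. Over all genes 7.51% rose and 5.04% fell. Besides *prdx-2*, the largest difference was in *msra-1*, a methionine sulfoxide reductase that repairs oxidized methionine, at 66.8, 50.5 and 27.4 in *prdx-2* worms, against 157, 187 and 199 in *sod-1* worms (log2 fold change of -1.98 with SE 0.44, adjusted p = 0.00339). *trxr-1*, the cytosolic thioredoxin reductase, measured 191, 180.0 and 180.5 in *prdx-2* worms, against 152, 142 and 132 in *sod-1* worms (log2 fold change of 0.37 with SE 0.12, adjusted p = 0.0349). *trxr-2* and *gpx-2* had log2 fold changes of 0.60 and 0.57, and the glutaredoxin gene *glrx-21* -0.45. Lack of overlap between the strains was a condition of naming these 5 genes. Without *sod-1* replicate 1, 5 genes of the list fell. The calls of *trxr-1* and *glrx-21* were lost with the length trend removed (adjusted p = 0.140 and 0.219). Without single libraries, the call of *trxr-1* was lost without *prdx-2* replicate 1, 2 or 3 or *sod-1* replicate 2 or 3 (adjusted p = 0.0667 to 0.158), that of *trxr-2* without *prdx-2* replicate 1 or *sod-1* replicate 2 or 3 (adjusted p = 0.0537 to 0.105), that of *gpx-2* without *prdx-2* replicate 1 or 2 or *sod-1* replicate 1, 2 or 3 (adjusted p = 0.0513 to 0.153) and that of *glrx-21* without *prdx-2* replicate 1, 2 or 3 or *sod-1* replicate 2 or 3 (adjusted p = 0.073 to 0.248). The other peroxiredoxins showed no call, with *prdx-3*, the mitochondrial one, at 114.9 to 123 in *prdx-2* worms and 121 to 179 in *sod-1* worms, and *prdx-6* at 24.5 to 26.8 in *prdx-2* worms and 25.1 to 38.9 in *sod-1* worms.

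**Figure D5:**
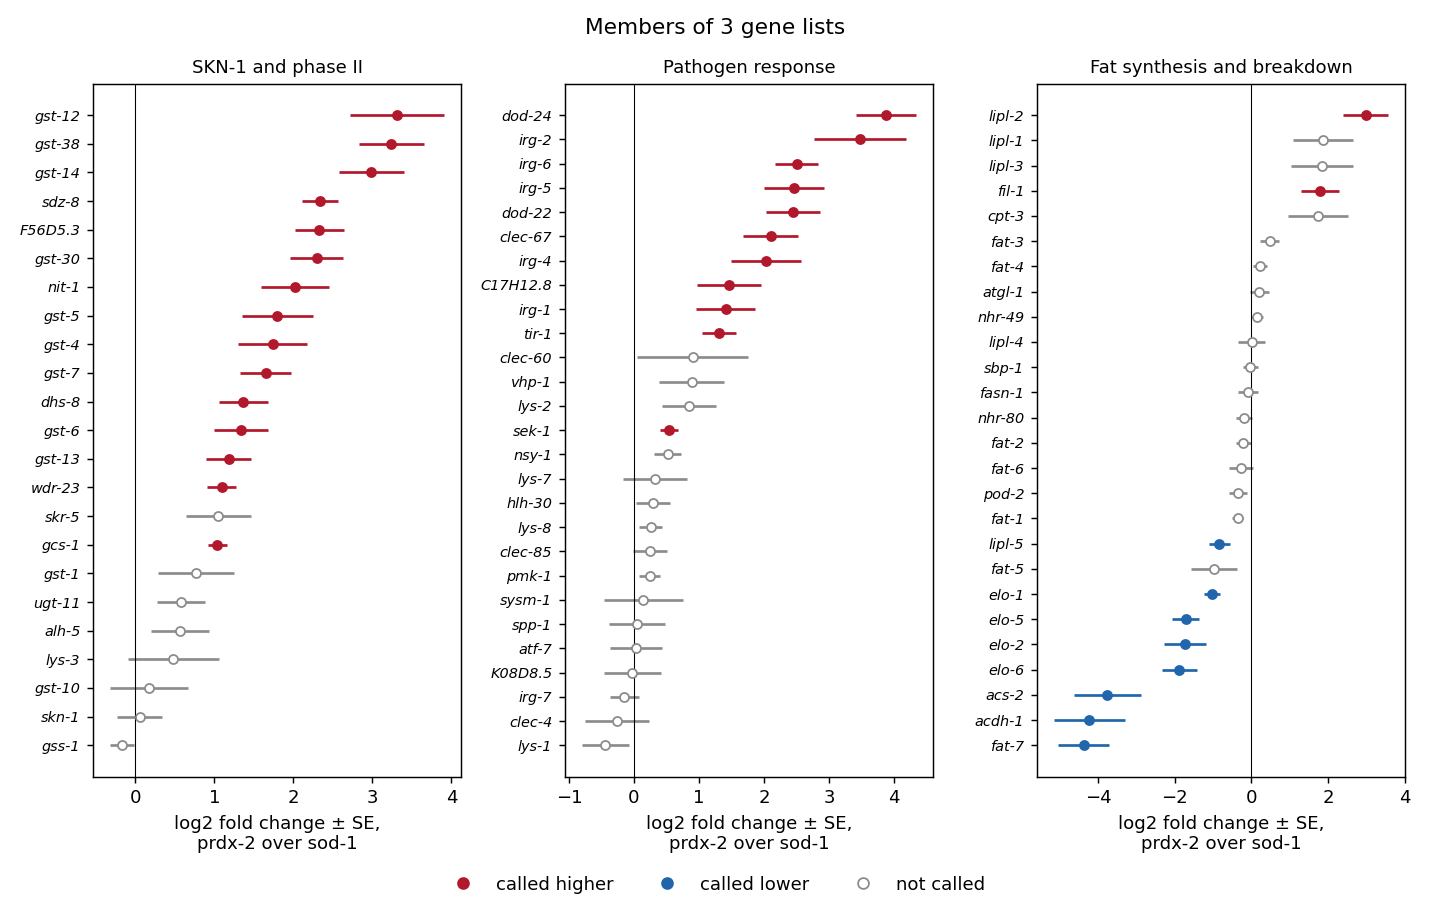
Log2 fold change with its standard error, *prdx-2* over *sod-1* worms, of every measured member of 3 gene lists, filled red where called higher, filled blue where called lower and open where not called. In the SKN-1 and phase II list 15 of 23 genes are called higher and none lower, in the pathogen list 11 of 27, and in the fat list 2 higher and 8 lower of 26. Over all genes 7.51% were called higher and 5.04% lower. The lists were chosen with earlier results of these data known.

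SKN-1, the worm counterpart of the mammalian Nrf proteins, drives phase II detoxification genes when oxidants or electrophiles accumulate, and WDR-23 targets it for degradation. Of 23 genes 15 rose and none fell, where 7.51% of all genes rose and 5.04% fell. In all 15 the strains did not overlap. In the list 22 genes had positive log2 fold changes, and the median was 1.34, against -0.03 over all genes. Its members were chosen with earlier results of these data known, so these counts only describe the list. The glutathione S-transferase gene *gst-12* measured 74.0, 34.7 and 20.1 in *prdx-2* worms, against 3.16, 4.68 and 2.39 in *sod-1* worms (log2 fold change of 3.31 with SE 0.60, adjusted p = 3.94e-04). *gst-38* measured 19.8, 57.1 and 44.1 in *prdx-2* worms, against 4.49, 2.77 and 3.29 in *sod-1* worms (log2 fold change of 3.24 with SE 0.41, adjusted p = 1.51e-06), and *gst-14* 11.96, 7.48 and 2.32 in *prdx-2* worms, against 0.312, 0.454 and 0.225 in *sod-1* worms (log2 fold change of 2.99 with SE 0.41, adjusted p = 6.13e-06). *gst-12* and *gst-14* were highest in *prdx-2* replicate 1 and *gst-38* was lowest there.

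*gst-30*, the short-chain dehydrogenase relative *sdz-8* and the oxidoreductase gene F56D5.3 rose by log2 fold changes of 2.29, 2.34 and 2.33. *gst-4*, the usual reporter gene of SKN-1 activity, measured 126, 128 and 103.8 in *prdx-2* worms, against 40.5, 32.4 and 33.3 in *sod-1* worms (log2 fold change of 1.74 with SE 0.44, adjusted p = 0.00876). Its wild-type libraries spanned 12.4 to 23.1, so that the *sod-1* values lay above that range too, and the *prdx-2* values further above it. *gcs-1*, the rate-limiting enzyme of glutathione synthesis, measured 175, 249 and 211 in *prdx-2* worms, against 114, 93.5 and 99.6 in *sod-1* worms (log2 fold change of 1.03 with SE 0.12, adjusted p = 3.92e-07). *wdr-23* measured 149, 127 and 112 in *prdx-2* worms, against 75.4, 46.8 and 60.8 in *sod-1* worms (log2 fold change of 1.09 with SE 0.18, adjusted p = 1.59e-04). *skn-1* itself was not called, at 229, 181 and 186 in *prdx-2* worms and 196, 179.7 and 197 in *sod-1* worms (adjusted p = 0.934), nor was the glutathione synthetase gene *gss-1* (adjusted p = 0.502). 15 genes of the list were called without *prdx-2* replicate 1 and with the length trend removed, 11 without both *prdx-2* replicate 1 and *sod-1* replicate 2, and 6 against *sod-1* replicate 1 alone.

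Gene families, those of detoxification among them, were taken by their symbols. Over all genes 7.51% rose and 5.04% fell. Several *gst* genes also belong to the SKN-1 and phase II list, so the *gst* count is not separate from it. Of 34 *gst* genes 14 rose and 2 fell (median log2 fold change 1.12), and 13 and 0 without *prdx-2* replicate 1. Of 62 cytochrome P450 (*cyp*) genes 23 rose and 1 fell (median 0.81), and 14 to 25 rose when 1 library was left out (15 without *prdx-2* replicate 1, 15 without *prdx-2* replicate 2, 14 without *sod-1* replicate 2). *cyp-14A4* measured 5.83, 20.3 and 3.80 in *prdx-2* worms, against 0.117, 0.273 and 0.0901 in *sod-1* worms (log2 fold change of 3.66 with SE 0.61, adjusted p = 1.32e-04). The 58 *ugt* genes, which encode UDP-glucuronosyltransferases, were divided, with 7 higher and 5 lower, and *ugt-2* measured 70.3, 46.2 and 31.6 in *prdx-2* worms, against 8.27, 6.90 and 7.26 in *sod-1* worms (log2 fold change of 2.57 with SE 0.30, adjusted p = 3.92e-07). Of 171 nuclear hormone receptor (*nhr*) genes 34 rose and 3 fell (median 0.38), and of 118 F-box (*fbxa*) genes 30 rose and 3 fell (median 0.42). These counts moved with single libraries. The *nhr* genes called higher were 19 and 14 without *prdx-2* replicates 1 and 2, 22 without *prdx-2* replicate 3, and 17 and 9 without *sod-1* replicates 2 and 3. The *fbxa* genes called higher were 20 without *prdx-2* replicate 1, and 17 and 18 without *sod-1* replicates 2 and 3. *fbxa-162*, annotated as a pseudogene, measured 5.33, 4.48 and 5.72 in *prdx-2* worms, against 0.195, 0.545 and 0.180 in *sod-1* worms. *fbxa-72*, one of the 3 that fell, measured 6.40, 6.21 and 4.82 in *prdx-2* worms, against 42.6, 41.8 and 29.3 in *sod-1* worms. With the length trend removed, 14, 22, 7, 33 and 30 genes of the *gst*, *cyp*, *ugt*, *nhr* and *fbxa* families were called higher.

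Of 27 measured pathogen response genes 11 rose and none fell (median log2 fold change 0.54), where 7.51% of all genes rose and 5.04% fell. This list too was chosen with earlier results of these data known. *dod-24*, a CUB-like gene of the intestinal response to bacteria, measured 537, 524 and 617 in *prdx-2* worms, against 36.1, 39.8 and 36.4 in *sod-1* worms (log2 fold change of 3.88 with SE 0.46, adjusted p = 4.47e-07), and the 3 *prdx-2* values stood well above the wild-type range of 30.7 to 82.7. *irg-2* measured 6.70, 12.99 and 23.1 in *prdx-2* worms, against 1.05, 0.318 and 0.811 in *sod-1* worms (log2 fold change of 3.48 with SE 0.71, adjusted p = 0.00157), and *dod-22* 19.995, 38.1 and 42.6 in *prdx-2* worms, against 3.79, 9.17 and 4.64 in *sod-1* worms (log2 fold change of 2.44 with SE 0.42, adjusted p = 1.87e-04). *clec-67*, a C-type lectin, measured 61.2, 114 and 106 in *prdx-2* worms, against 20.02, 28.3 and 15.5 in *sod-1* worms (log2 fold change of 2.10 with SE 0.43, adjusted p = 0.00148). Lack of overlap between the strains was a condition of naming these genes. C32H11.1 and F35E12.5, named *irg-6* and *irg-5* in the newer annotation, rose by log2 fold changes of 2.503 and 2.46. Of the p38 kinase pathway that governs many of these genes, *tir-1* and *sek-1* rose too (log2 fold changes 1.31 and 0.54), while the p38 kinase gene *pmk-1* was not called (adjusted p = 0.345). The list had 11 calls without *prdx-2* replicate 1, 11 with the length trend removed and 3 against *sod-1* replicate 1 alone. Of 106 C-type lectin (*clec*) genes 6 rose (5.66%, against 7.51% over all genes) and 11 fell (10.4%, against 5.04% over all genes). Without *sod-1* replicate 3 only 3 rose and 7 fell, 4 rose and 5 fell without *sod-1* replicate 2, and 4 rose and 6 fell without *prdx-2* replicate 2. The largest increases were those of *clec-17* at 27.5, 23.4 and 33.2 in *prdx-2* worms, against 1.95, 2.54 and 0.766 in *sod-1* worms, and *clec-3* at 9.98, 13.2 and 14.7 in *prdx-2* worms, against 0.976, 0.999 and 0.631 in *sod-1* worms.

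Among metal handling genes 3 of 17 measured rose and none fell, where 7.51% of all genes rose and 5.04% fell. *cdr-4* and *cdr-2* are cadmium-responsive genes of the glutathione S-transferase fold. *cdr-4* measured 308, 305 and 219.5 in *prdx-2* worms, against 19.4, 22.7 and 34.9 in *sod-1* worms (log2 fold change of 3.44 with SE 0.67, adjusted p = 8.86e-04), and *cdr-2* 132, 164 and 100.6 in *prdx-2* worms, against 18.96, 19.8 and 22.9 in *sod-1* worms (log2 fold change of 2.63 with SE 0.32, adjusted p = 8.04e-07). *cua-1*, a copper-transporting ATPase, rose by a log2 fold change of 0.46, a call lost with the length trend removed and without *prdx-2* replicate 1 or *sod-1* replicate 2 or 3 (adjusted p = 0.0679 to 0.215). The metallothionein gene *mtl-1* was not called, although its *prdx-2* values of 95.4, 39.9 and 41.2 lay above the *sod-1* values of 12.56, 11.3 and 14.7 (adjusted p = 0.107).

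Of the 8 DAF-16 target genes that the study followed, 3 rose and none fell (median log2 fold change 1.13), namely *sod-3*, *dod-3* and *acs-17*. *dod-3* measured 26.5, 11.08 and 13.5 in *prdx-2* worms, against 2.81, 1.64 and 3.56 in *sod-1* worms (log2 fold change of 2.42 with SE 0.70, adjusted p = 0.0212), and *acs-17* 108, 56.3 and 55.4 in *prdx-2* worms, against 33.6, 28.6 and 26.95 in *sod-1* worms (log2 fold change of 1.22 with SE 0.27, adjusted p = 0.0031). All 3 genes were highest in *prdx-2* replicate 1. The call of *dod-3* was lost without *prdx-2* replicate 1 or *sod-1* replicate 2 (adjusted p = 0.104 to 0.121) and that of *sod-3* as given above, while *acs-17* was called without any single library. *sodh-1* and *icl-1* were uncalled and high only in *prdx-2* replicate 1, *sodh-1* at 274, 40.1 and 64.3 in *prdx-2* worms and 48.1, 94.2 and 84.3 in *sod-1* worms, *icl-1* at 1306, 682 and 507 in *prdx-2* worms and 541, 505 and 787 in *sod-1* worms. In insulin signaling 4 of 15 genes rose and 1 fell, where 7.51% of all genes rose and 5.04% fell. *ist-1*, an insulin receptor substrate homolog, measured 14.1, 12.18 and 12.095 in *prdx-2* worms, against 7.53, 3.54 and 6.67 in *sod-1* worms (log2 fold change of 1.11 with SE 0.25, adjusted p = 0.00358). *pqm-1*, *akt-2* and the receptor gene *daf-2* rose by log2 fold changes of 1.202, 0.90 and 0.76, and the insulin-like gene *daf-28* fell (-1.05). The call of *daf-2* was lost with the length trend removed (adjusted p = 0.290). Without single libraries, the call of *ist-1* was lost without *sod-1* replicate 2 (adjusted p = 0.0688), that of *pqm-1* without *prdx-2* replicate 1, 2 or 3 or *sod-1* replicate 1, 2 or 3 (adjusted p = 0.0635 to 0.174), that of *akt-2* without *prdx-2* replicate 1 or *sod-1* replicate 3 (adjusted p = 0.0754 to 0.076), that of *daf-2* without *prdx-2* replicate 1 or *sod-1* replicate 2 or 3 (adjusted p = 0.0578 to 0.175) and that of *daf-28* without *prdx-2* replicate 1 or *sod-1* replicate 2 or 3 (adjusted p = 0.0534 to 0.137). *daf-16* was not called (adjusted p = 0.595).

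Chaperone genes showed few calls. None of the 15 genes of the heat shock chaperone list was called. *hsp-70*, an inducible chaperone, measured 7.81, 155 and 155 in *prdx-2* worms and 8.90, 1.91 and 12.62 in *sod-1* worms (log2 fold change of 3.13 with SE 2.09, adjusted p = 0.361), with *prdx-2* replicate 1 among the *sod-1* values and the other *prdx-2* libraries far above them. *hsp-16.2*, a small heat shock protein gene, was likewise low in *prdx-2* replicate 1 alone, at 1.68, 159 and 166 in *prdx-2* worms and 9.83, 15.4 and 21.8 in *sod-1* worms (adjusted p = 0.723). Wild-type worms spanned a wider range, with *hsp-70* at 2.82 to 1075. Of 10 measured small heat shock protein genes only *hsp-12.1* was called, lower at 1.41, 3.07 and 3.37 in *prdx-2* worms, against 3.63, 7.90 and 5.18 in *sod-1* worms (log2 fold change of -0.97 with SE 0.31, adjusted p = 0.0388), a call lost with the length trend removed and without *prdx-2* replicate 1 or 2 or *sod-1* replicate 2 or 3 (adjusted p = 0.0502 to 0.27). In the mitochondrial unfolded protein response 2 of 13 genes fell and none rose, against 1 and 4 with library totals as scaling. Over all genes 5.04% fell and 7.51% rose. *hsp-60*, a mitochondrial chaperonin, measured 381, 471 and 431 in *prdx-2* worms, against 667, 846 and 785 in *sod-1* worms (log2 fold change of -0.84 with SE 0.20, adjusted p = 0.00627), every *prdx-2* value below the wild-type range, and *ubl-5* had a log2 fold change of -0.67, a call lost with the length trend removed and without *prdx-2* replicate 3 or *sod-1* replicate 2 or 3 (adjusted p = 0.0709 to 0.135). *hsp-6* was not called, at 685 to 759 in *prdx-2* worms and 725 to 863 in *sod-1* worms. Of 19 genes of the endoplasmic reticulum response only *ire-1*, a sensor kinase, was called, and its values overlapped at 133, 99.9 and 98.9 in *prdx-2* worms and 103, 62.2 and 83.0 in *sod-1* worms (log2 fold change of 0.43 with SE 0.13, adjusted p = 0.0254), a call lost with the length trend removed and without *prdx-2* replicate 1 or *sod-1* replicate 2 or 3 (adjusted p = 0.0694 to 0.32).

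Of 10 measured genes for enzymes that supply NADPH, the electron source for thioredoxin and glutathione reduction, 1 rose and 3 fell (median log2 fold change -0.44). *nnt-1*, the mitochondrial transhydrogenase, measured 75.7, 42.2 and 36.4 in *prdx-2* worms, against 9.60, 7.63 and 10.2 in *sod-1* worms (log2 fold change of 2.36 with SE 0.50, adjusted p = 0.00209). *idh-1*, the cytosolic isocitrate dehydrogenase, measured 273, 233 and 199 in *prdx-2* worms, against 402, 583 and 476 in *sod-1* worms (log2 fold change of -1.05 with SE 0.32, adjusted p = 0.0279). Y24D9A.8, the transaldolase gene *tald-1*, and *men-1*, a malic enzyme, had log2 fold changes of -0.70 and -0.40. The call of *idh-1* was lost without *prdx-2* replicate 2 or 3 or *sod-1* replicate 2 or 3 (adjusted p = 0.0686 to 0.155), that of Y24D9A.8 without *sod-1* replicate 2 (adjusted p = 0.106) and that of *men-1* without *prdx-2* replicate 1 or 3 or *sod-1* replicate 2 or 3 (adjusted p = 0.0533 to 0.181). The genes of the list called lower numbered 4 with the length trend removed, 6 without *sod-1* replicate 1 and none without *sod-1* replicate 2. None of the 13 genes of the hypoxia and hydrogen sulfide response was called, with *nhr-57*, a HIF-1 target, showing the largest difference at 5.83, 8.29 and 6.45 in *prdx-2* worms and 3.79, 5.27 and 2.97 in *sod-1* worms (adjusted p = 0.104).

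Ribosomal and sperm protein genes had many calls in the lower direction, and these counts moved with gene length and scaling. Of 45 *rpl* and 31 *rps* genes, which encode the proteins of the large and small cytosolic ribosomal subunits, 21 and 18 fell and none rose, with medians of -0.51 and -0.53. *rps-28* measured 366, 379.5 and 405 in *prdx-2* worms, against 436, 748 and 623 in *sod-1* worms (log2 fold change of -0.62 with SE 0.15, adjusted p = 0.00743). *sod-1* replicate 1 was the nearest to the *prdx-2* values, and the call was lost without *sod-1* replicate 2 (adjusted p = 0.113). With the length trend removed 4 *rpl* and 5 *rps* genes fell, 2 and 4 without *prdx-2* replicate 1, and 2 and 3 with library totals as scaling. Without *sod-1* replicate 1, 37 *rpl* and 28 *rps* genes fell, without *sod-1* replicate 2 none of either, and without *sod-1* replicate 3 only 1 and 2. Leaving out *prdx-2* replicates 2 or 3 left 7 *rpl* and 6 or 7 *rps* genes, the 6 libraries fitted alone called none, and against *sod-1* replicate 1 alone the medians were -0.14 and -0.14 with no gene called. Of the mitochondrial ribosomal protein genes 10 of 39 *mrpl* and 9 of 27 *mrps* fell, and 1 and 5 with the length trend removed. Without 1 library the counts ran from 0 (without *sod-1* replicate 2) to 20 *mrpl* and 12 *mrps* genes (without *sod-1* replicate 1). Of 30 *msp* genes, which encode the major sperm proteins and are near-identical to each other, 19 fell (median -0.88), 2 and 4 without *prdx-2* replicates 1 and 2, 2 and 4 without *sod-1* replicates 2 and 3, and 5 with the length trend removed. Sperm markers besides these summed to 294, 488 and 641 in *prdx-2* worms and 570.0, 735 and 679 in *sod-1* worms, lowest in *prdx-2* replicate 1, and 3 of 17 fell. No sperm marker was called without *prdx-2* replicate 1, *sod-1* replicate 2 or *sod-1* replicate 3 or with the length trend removed, and 7 were lower without *prdx-2* replicate 3.

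Of 123 cuticle collagen (*col*) genes 14 fell and none rose (median -0.66), and 11 fell with the length trend removed. Without a single library 4 to 11 fell, with 4 and 9 without *prdx-2* replicates 2 and 3, and 6 and 4 without *sod-1* replicates 2 and 3. *col-101* measured 63.1, 46.4 and 57.9 in *prdx-2* worms, against 471, 300.2 and 522 in *sod-1* worms (log2 fold change of -2.91 with SE 0.72, adjusted p = 0.00711), and *col-149* 28.03, 58.1 and 34.7 in *prdx-2* worms, against 140.2, 332 and 174 in *sod-1* worms (log2 fold change of -2.37 with SE 0.57, adjusted p = 0.00583). Both were named on condition of no overlap. The call of *col-149* was lost without *sod-1* replicate 2 (adjusted p = 0.0632). With library totals as scaling 7 *col* genes fell and 1 rose. Body wall muscle markers summed to 14905, 14427 and 15118 in *prdx-2* worms, against 17565, 21827 and 19363 in *sod-1* worms and 16622 to 29489 over the wild-type libraries, and 3 of 12 fell. With the length trend removed 6 fell, 5 fell and 1 rose without *sod-1* replicate 1, none was called without *sod-1* replicate 2, and 1 fell without any other single library. *unc-27*, a troponin I gene, measured 541, 534 and 561 in *prdx-2* worms, against 702, 943 and 795 in *sod-1* worms (log2 fold change of -0.57 with SE 0.13, adjusted p = 0.00542), while *tnt-2* and *mlc-3* had log2 fold changes of -0.68 and -0.47. The call of *unc-27* was lost without *sod-1* replicate 2 (adjusted p = 0.0705), that of *tnt-2* without *prdx-2* replicate 1, 2 or 3 or *sod-1* replicate 2 or 3 (adjusted p = 0.0801 to 0.226) and that of *mlc-3* without *prdx-2* replicate 1, 2 or 3 or *sod-1* replicate 2 or 3 (adjusted p = 0.0823 to 0.33). Of 18 germline markers 1 rose, where 7.51% of all genes rose. It was *syp-1*, a protein of the synaptonemal complex, at 58.7, 59.3 and 62.9 in *prdx-2* worms, against 46.9, 28.02 and 31.96 in *sod-1* worms (log2 fold change of 0.78 with SE 0.13, adjusted p = 1.86e-04). Of 15 neuron markers only *unc-104*, a long kinesin gene, was called and its values overlapped, at 32.1, 34.7 and 33.1 in *prdx-2* worms, against 35.9, 13.7 and 16.18 in *sod-1* worms, a call lost without *prdx-2* replicate 2 or *sod-1* replicate 2 or 3 (adjusted p = 0.0584 to 0.229). None of the 12 intestine and 10 pharynx markers was called. *mtl-2*, a metallothionein listed as an intestine marker, had 100.2, 51.1 and 45.4 in *prdx-2* worms and 148, 201 and 225 in *sod-1* worms (adjusted p = 0.133), and *phat-1*, a mucin-like pharynx gene, had 2.74, 5.65 and 5.47 in *prdx-2* worms and 4.99, 8.77 and 7.75 in *sod-1* worms (adjusted p = 0.569).

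Chromosome V and chromosome X held the most genes called higher, 10.1% and 9.38% of their genes tested, against 4.99% on chromosome I and 7.51% over all genes. Chromosome X had the smallest share called lower among the nuclear chromosomes (3.29%, against 5.04% over all genes), and its genes had a median exonic length of 1597.5 bases. Of 14 genes of the mitochondrial genome 5 fell (35.7%, against 5.04% over all genes) and none rose, with a median log2 fold change of -0.69. Their median exonic length was 822.5 bases. The calls of these genes were not counted with the length trend removed or without single libraries. Both mutated genes lie on chromosome II, where the genes around them were called about as often as others. Of 216 genes within 0.5 Mb of *prdx-2*, 12 rose and 18 fell (13.9%), and of 193 genes within 0.5 Mb of *sod-1*, 9 rose and 12 fell (10.9%), both without the mutated genes, against 12.5% of all genes called.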

How the data were processed

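Whole worms of 3 *prdx-2* and 3 *sod-1* libraries were compared by RNA sequencing. The authors aligned reads with STAR 2.5.2b to WBcel235 with Ensembl release 89 genes, counted reads per gene with STAR and normalized with edgeR 3.20.1. The kit was stranded, and the strand setting of the counts is not stated, so genes that overlap on opposite strands are uncertain. The deposited signal is a CPM that the authors normalized, and how they filtered genes is not given in the sources used here. Its values are whole multiples of 1 read for 99.97% to 100% of genes per library (tolerance 0.05 read), and the recovered reads, rescaled by TMM, gave the deposited values back. Depth was 23296948 to 24627455 reads in the 6 libraries. Limits given for counts of 0 cover counting error only.

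Log2 of the value plus 0.5 was fitted two-sided by limma 3.58.1 (eBayes, trend on, R 4.3.3) over all 39 libraries of the table, 1 mean per strain, with calls at a false discovery rate under 0.05 (Benjamini-Hochberg). The added 0.5 understates fold changes of low genes. Named genes are the mutated genes, the 12 largest increases and decreases among called genes averaging 1 or more without overlap, up to 6 such genes of each of 25 lists (where no member was called, the member with the largest difference), and up to 2 of a symbol family of at least 20 genes. For called genes named by this rule, the mutated genes aside, lack of overlap was a condition of naming and not a result. Other members of the lists, the genes with no read in *sod-1* worms, and *unc-22*, *unc-89* and *hsp-16.2* were added after their values were seen. The members and lists were chosen with earlier results of these data known. Positions and exonic lengths come from Ensembl release 115 on the same build, which places 13955 of 14033 genes. The length trend was removed per library by lowess (span 0.3) of deviations from gene means on log2 exonic length, an alternative chosen after seeing the data. The fit was tested on simulated counts that held no length trend and no library apart from its strain, so that test does not cover either feature. Further alternatives used edgeR 4.0.16 and DESeq2 1.42.0 on the recovered reads. Promoter motifs were not searched, and the columns of the other 2 deposited tables were not used.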

Additional observations from a re-analysis of the deposited data

How the results depend on the processing

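The *prdx-2* and *sod-1* transcripts kept their direction and their call in all 22 alternatives. The counts of genes called moved more. Against 1054 higher and 707 lower genes, the 6 libraries fitted alone gave 581 and 265, and edgeR on recovered reads of the 6 libraries gave 604 and 256. Over 39 libraries edgeR gave 968 and 746 and DESeq2 1080 and 936. Scaling by library total gave 1897 and 291. A false discovery rate of 0.01 left 456 and 189, and an absolute log2 fold change of at least 1 left 518 and 197. Leaving out 1 library at a time gave 452 to 1285 higher and 131 to 1044 lower genes. The counts fell by over 1.5 times without *prdx-2* replicate 1 (590 and 407), *sod-1* replicate 2 (452 and 131) or *sod-1* replicate 3 (489 and 199), for lower genes also without *prdx-2* replicate 2 (342) or *prdx-2* replicate 3 (463). Alternatives chosen after seeing the data gave 905 and 642 (length trend removed), 470 and 442 (length trend removed and *prdx-2* replicate 1 left out), 231 and 94 (*prdx-2* replicate 1 and *sod-1* replicate 2 left out) and 74 and 15 (*sod-1* replicates 2 and 3 left out). No call changed sign in any of them. Of the genes called at first, 67 higher and 12 lower ones were called in all 22 alternatives. Among the other 136 named genes 1 changed direction, the uncalled *bli-1*, with a log2 fold change of 0.62 without *prdx-2* replicate 1 and *sod-1* replicate 2. With the replicate number as a block (replicate block, 6 libraries) 498 and 258 genes were called. Deviations of same-numbered libraries correlated at 0.19, 0.47 and -0.31. The value of 0.47 was the highest of any pair, while *prdx-2* replicate 1 correlated best with *sod-1* replicate 3 (0.38). With 3 libraries per strain these values cannot decide whether the numbers pair the libraries. Pseudocounts of 0.1 and 1, a minimum mean of 1, and DESeq2 size factors left both counts within 1.5 times.

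With 3 libraries per strain, smaller changes can go undetected. Stage and gene length vary with single libraries of each strain. Their part in single results was not tested.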

Other observations

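Some genes called in all 22 alternatives had not been named by the rule and were looked up after their values were seen. *spp-17*, a saposin-like gene, measured 37.3, 60.9 and 57.5 normalized CPM in *prdx-2* worms, against 238, 334 and 208 in *sod-1* worms (log2 fold change of -2.32 with SE 0.27, adjusted p = 3.92e-07, limma). R03D7.2 measured 4.84, 6.14 and 5.76 against 35.8, 47.1 and 37.3 (log2 fold change of -2.73 with SE 0.29, adjusted p = 4.73e-08), with the *sod-1* values above the wild-type range of 16.04 to 24.4 and the *prdx-2* values below it. *cyp-33C8*, a cytochrome P450 gene, measured 124, 73.4 and 86.7 in *prdx-2* worms, against 7.61, 8.49 and 6.49 in *sod-1* worms (log2 fold change of 3.54 with SE 0.42, adjusted p = 4.39e-07).

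Further such genes had every *sod-1* library below every wild-type library, and these are examples. T25C12.3 measured 544, 753 and 827 in *prdx-2* worms, against 203, 134 and 118.7 in *sod-1* worms (log2 fold change of 2.23 with SE 0.28, adjusted p = 8.46e-07), with wild-type libraries at 779.9 to 1537. F07H5.3 and F07H5.5, nearby pseudogenes on chromosome II, also stood apart. F07H5.3 measured 83.7, 94.8 and 92.3 in *prdx-2* worms, against 28.2, 31.4 and 34.5 in *sod-1* worms (log2 fold change of 1.51 with SE 0.13, adjusted p = 9.40e-11), with wild-type libraries at 90.4 to 121. F07H5.5 measured 797, 972 and 1028 in *prdx-2* worms, against 249, 307 and 258 in *sod-1* worms (log2 fold change of 1.78 with SE 0.15, adjusted p = 2.47e-10), with wild-type libraries at 604 to 941. A call in every alternative, *sod-1* replicate 1 alone included, was how these genes were chosen, so it adds no support.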
